A study of Mus musculus with 80 samples.

Results

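Complement is a set of plasma and cell surface proteins that tags cells and debris for removal. In the classical route, C1q (of which C1qa is a chain) binds its target and carries the proteases C1r and C1s. Of these, C1s cuts C4, which leads to cleavage of C3, and factor B amplifies C3 cleavage in the alternative route. Host cells limit these steps with Serping1, the secreted inhibitor of C1r and C1s, with Cd55, which takes apart the C3-cleaving enzymes, and with Cd59a, which blocks the final membrane pore. The 9 genes followed here are *C1qa*, *C1ra*, *C1s1*, *C4b*, *C3*, *Cfb*, *Serping1*, *Cd55* and *Cd59a*. They were taken by name from the 25899 genes of the expression table, and all 9 of 9 were found there, *C1s1* under its older symbol *C1s*.

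RNA was sequenced from muscle stem cells (MuSCs) of extraocular muscle (EOM), a head muscle, and of tibialis anterior (TA), a limb muscle. The donors were 10 mice (9 in the libraries compared), male *Tg:Pax7-nGFP* animals labelled as 7 or 7.6 weeks old, in which nuclear GFP driven by *Pax7* sequences marks the cells to sort, so cells without *Pax7* activity are not meant to enter. Part of the sorted cells, 500 for each library, was kept as the pre-graft sample. The rest were injected into TA muscles of immunodeficient *Rag2*-/-;*γC*-/- recipients that had been injured with cardiotoxin, EOM and TA cells of a donor going to opposite legs of 1 recipient. GFP-positive cells were sorted again (day 21 by the labels), which gave as few as 9 cells for an EOM graft and 16 for a TA graft. Recipients of this genotype lack lymphocytes but keep other cells, macrophages among them, and all grafts went into TA. Of 40 libraries, 30 passed the quality control of the study and are compared here. They are 8 EOM and 8 TA before grafting and 7 EOM and 7 TA after it. Of the libraries left out, 1 met the stated limits, EOM of mouse 3 of Experiment 2 before grafting. The study lists it as an outlier in its group.

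Reads on genes ranged from 963432 to 4169357 over the 30 libraries. Levels are given as log2 RPM, RPM being reads scaled to a fixed library size, in which a gene without a read stands at 0.9 of a read, between -1.67 and 0.48 depending on depth. Mitochondrial genes took on average 4.84% of gene reads in EOM and 14.5% in TA before grafting, against 44.3% in EOM grafts and 38.4% in TA grafts, which lowers the RPM of other genes. The median gene fell by 1.09 on the log2 scale from TA to TA grafts and by 1.48 from EOM to EOM grafts, so changes on grafting are also set against that median. The summed level of 10 MuSC markers had a median of 18992 RPM in EOM and 19590 in TA before grafting, and of 5100 and 3952 in their grafts, with all 10 detected in every group. The summed level of 10 endothelial markers moved the other way, with medians of 256 and 503 RPM before grafting and 3511 and 4941 in the grafts. Single markers could differ from their sum. Median *Tek*, an endothelial marker, fell from EOM to EOM grafts (156 to 85.3 RPM). Median *Cd34*, a MuSC marker, rose from TA to TA grafts (215 to 304 RPM). Of the MuSC markers *Sdc4* was the most abundant, at 9955 RPM in EOM before grafting. Medians of 12 fibro-adipogenic markers were 5260, 4066, 2744 and 3971 RPM in EOM, TA, EOM grafts and TA grafts, with *Dpt* (2343 RPM) and *Gsn* (1844 RPM) the most abundant in EOM before grafting. In the same order, 7 myofibre markers gave 29.1, 133, 344 and 260 RPM, 6 Schwann cell markers 531, 18.2, 49.1 and 7.58, and 5 erythroid markers 1.72, 0.820, 7630 and 5.10. Of the fibro-adipogenic markers, median *Dcn* rose from TA to TA grafts (0.279 to 330 RPM), as did *Ly6a* (63.2 to 529). *Col1a1*, *Lum*, *Mfap5*, *Smoc2* and *Clec3b* were also higher, *Dpt* (1322 to 276), *Gsn* and *Col3a1* lower, and *Pdgfra* and *Pi16* at 0 in both. In EOM grafts *Dcn* (53.5 to 216) and *Ly6a* (25.8 to 701) were higher, *Dpt*, *Gsn* and *Col3a1* lower, and the rest moved either way. The part of these other cells in the results was not tested, and in such bulk samples fewer cells of a type and less RNA per cell cannot be told apart.

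Of 12 macrophage markers, the summed level lay between 25.2 and 98.8 RPM in 7 of the EOM pre-graft libraries and at 1852 RPM in the other, mouse 2 of Experiment 2. In that library 11 of the 12 had over 3 reads, among them *Mrc1* with 880, *Csf1r* with 329 and *Cd163* with 201, while *Aif1* had none in any EOM library before grafting. TA libraries lay between 19.2 and 32.5 RPM before grafting, with *Fcgr1*, *Cd163* and *Ctss* at 0 in all, and between 17.7 and 72.8 RPM after it. EOM grafts lay between 2.88 and 945 RPM, the highest being mouse 5 of Experiment 2. Differences of *C1qa*, *C4b*, *C3* and *C2* that involve this EOM library of mouse 2 are given with and without it.

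The genes differed widely in level. Per kilobase of exon sequence (GENCODE vM21, exons of all transcripts merged), median RPM in EOM before grafting was 734 for *Serping1*, 43.1 for *Cd59a*, 17.0 for *C1ra*, 14.2 for *C1s1* and 8.37 for *Cd55*. It was 0.863 for *C4b*, 0.859 for *Cfb* and 0.347 for *C3*, and *C1qa* was at 0. In TA before grafting, the order was the same for the 4 highest, at 500, 19.4, 10.3 and 4.74 RPM per kilobase, and *C4b*, at 3.29, stood above *Cd55*, at 2.22. The sorted samples thus held abundant RNA for the inhibitor of C1r and C1s and little for C3, the protein on which the routes meet.

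*C1qa* (chromosome 4, 136895917 to 136898803, GRCm38) encodes a chain of the C1q recognition molecule, which macrophages produce in quantity. It had 423 reads in the EOM pre-graft library with macrophage markers and 5 in 1 other EOM library, out of 428 in the group. *C1qb* and *C1qc*, the genes of its partner chains, had 880 and 391 reads in that same library and at most 21 and 6 elsewhere. In EOM grafts, *C1qa* had 12, 7 and 2 reads in 3 libraries and none in 4. None of the 15 TA libraries had a *C1qa* read, which allows up to 3 reads in each, between 1.22 and 4.64 RPM before grafting and between 1.43 and 2.46 RPM in the grafts. The gene passed the filter in the comparison of EOM grafts with EOM before grafting, where its difference was 0.12 ± 1.10 (log2, SE, adjusted p = 0.929), and in the fit over 4 groups. Without the library of mouse 2 it was under the filter there and was not tested.

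**Figure D1:**
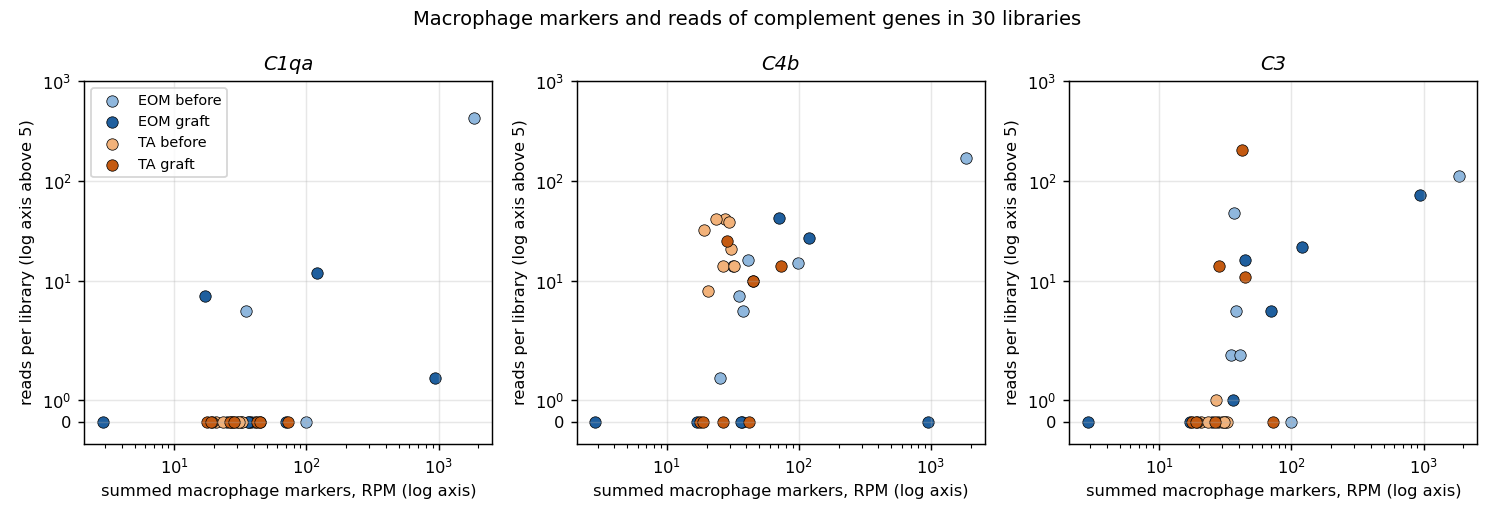
Reads of *C1qa*, *C4b* and *C3* in each of the 30 libraries (vertical axis, logarithmic above 5 reads) against the summed RPM of 12 macrophage markers (horizontal logarithmic axis), with 1 point for each library coloured by group. The EOM pre-graft library at 1852 RPM holds 423 reads of *C1qa* and 170 of *C4b*, whereas the highest *C3* count, 203, lies in a TA graft with 42.0 RPM of the markers.

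*C1ra* and *C1s1*, the genes of the C1r and C1s proteases, lie tail to tail on chromosome 6, at 124512632 to 124523440 on the plus strand and 124530345 to 124542359 on the minus strand. *C1ra* ran from 5.34 to 5.97 log2 RPM in EOM before grafting (median 5.66) and from 3.61 to 5.40 in TA (median 4.94), so that 1 TA library reached into the EOM range. In EOM grafts it ran from -1.08, without a read, to 5.46 (median 2.77), and in TA grafts from -0.97, without a read, to 5.63 (median 4.22). In each kind of graft 2 libraries had no read, and no graft reached the highest EOM values before grafting.

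*C1s1* lay between 4.53 and 5.70 log2 RPM in EOM before grafting (median 5.47) and between 2.11 and 5.03 in TA (median 3.89). EOM grafts lay between 1.91 and 6.41 (median 4.11). TA grafts ranged from -0.97, without a read in mouse 4 of Experiment 2, to 7.59 (median 4.84), and the highest of them, mouse 3 of Experiment 1 with 403 reads, held 49.7% of the *C1s1* reads of its group. The 576 exon bases of *Gm16567*, a gene on the opposite strand, all lie within exons of *C1s1*, and since reads fell on either strand alike (49.6% to 50.5% sense), reads of the shared bases cannot be told apart.

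*C4b* encodes C4, the substrate of C1s (chromosome 17, 34728380 to 34743882). It was read in 8 of 8 TA libraries before grafting, between 1.75 and 4.55 log2 RPM (median 4.21), the lowest with 8 reads and the highest with 42. EOM before grafting ran from -0.90 to 5.89 (median 2.29), and the highest value was the library with macrophage markers, whose 170 reads made 74.2% of the group's. In EOM grafts *C4b* had 43, 27 and 10 reads in 3 libraries and none in 4, and in TA grafts 25, 14 and 10 reads in 3 and none in 4. Its neighbour *C4a*, a near-identical copy, had at most 23 reads in any library, and how reads matching both copies were counted is not given in the sources used here.

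*C3* (chromosome 17, 57203970 to 57228136), the protein on which all routes converge, was close to absent from TA before grafting, with 1 read in 1 of 8 libraries. TA grafts had 203, 14 and 11 reads in 3 libraries and none in 4. Summed over libraries, 228 reads against 1 is a ratio of 300.2 of the shares of gene reads (95% exact conditional Poisson interval 53.3 to 11910, covering counting error only), and without the graft of mouse 2 of Experiment 2, which held 89.0% of the reads, it is 39.7 (6.50 to 1631). In EOM before grafting *C3* had 112 and 48 reads in mice 2 and 1 of Experiment 2, between 3 and 5 in the 3 libraries of Experiment 1 and none in the others. EOM grafts had 73, 22, 16, 5 and 1 reads in 5 libraries and none in 2, the highest being mouse 5 of Experiment 2, which also had the most macrophage marker RNA among the grafts.

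*Cfb*, the gene of factor B (chromosome 17, 34856374 to 34862518), had at most 3 reads in any TA library before grafting and up to 20 in EOM. Of the EOM grafts, 3 had 73, 46 and 30 reads and the others at most 3, and 2 TA grafts had 43 and 10 reads and the others at most 3. The 73 reads were in mouse 5 of Experiment 2, the graft with the most macrophage marker RNA. The EOM pre-graft library with the most of these markers, at 1852 RPM, had 1 *Cfb* read. The TA graft with 43 *Cfb* reads had 26.5 RPM of them. A link between the 2 was not tested. Of its 2825 exon bases, 2246 are shared with *Gm20547*, a gene on the same strand, so that reads of both are hard to separate.

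*Serping1* (chromosome 2, 84765387 to 84775444) was the one member with abundant reads throughout. EOM libraries before grafting were tightly grouped, from 10.68 to 10.93 log2 RPM (median 10.74, 2611 to 5157 reads), and TA libraries ran from 9.45 to 10.55 (median 10.18), all 8 below all 8 of EOM. EOM grafts spread from 6.31 to 11.02 (median 8.34), the highest being the only passing graft of Experiment 1. TA grafts spread from 5.11 to 9.58 (median 8.85). The lowest TA graft, mouse 3 of Experiment 2 with 42 reads, was also the library with the largest mitochondrial share of gene reads, 81.1%.

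*Cd55*, the decay-accelerating factor (chromosome 1, 130439027 to 130462744), lay between 3.84 and 6.37 log2 RPM in EOM before grafting (median 5.33). TA ranged from 0.48, without a read, to 5.81 (median 3.43), and 7 of its 8 libraries were below the EOM median. EOM grafts ran from -1.14 to 6.06 (median 2.81) and TA grafts from -0.95 to 5.89 (median 3.98). The highest EOM graft, with 78 reads, was that of mouse 5 of Experiment 2, which had the most macrophage marker RNA among the grafts. *Cd55b*, the neighbouring copy listed as *Daf2*, had 18 reads in the EOM pre-graft library with macrophage markers and at most 1 elsewhere.

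*Cd59a*, the inhibitor of the membrane pore (chromosome 2, 104095801 to 104115354), lay between 5.63 and 6.67 log2 RPM in EOM before grafting (median 6.29) and between 1.82 and 5.75 in TA (median 5.13). EOM grafts ran from 2.94 to 6.13 (median 5.13) and TA grafts from 2.88 to 6.72 (median 5.79). The lowest TA library and the lowest TA graft both came from mouse 3 of Experiment 2, and without them TA spanned 4.65 to 5.75 and TA grafts 5.64 to 6.72. Its neighbour *Cd59b* was lower, with medians of 3.54 and 3.20 in EOM and TA and of 2.07 and -0.06 in their grafts.

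**Figure D2:**
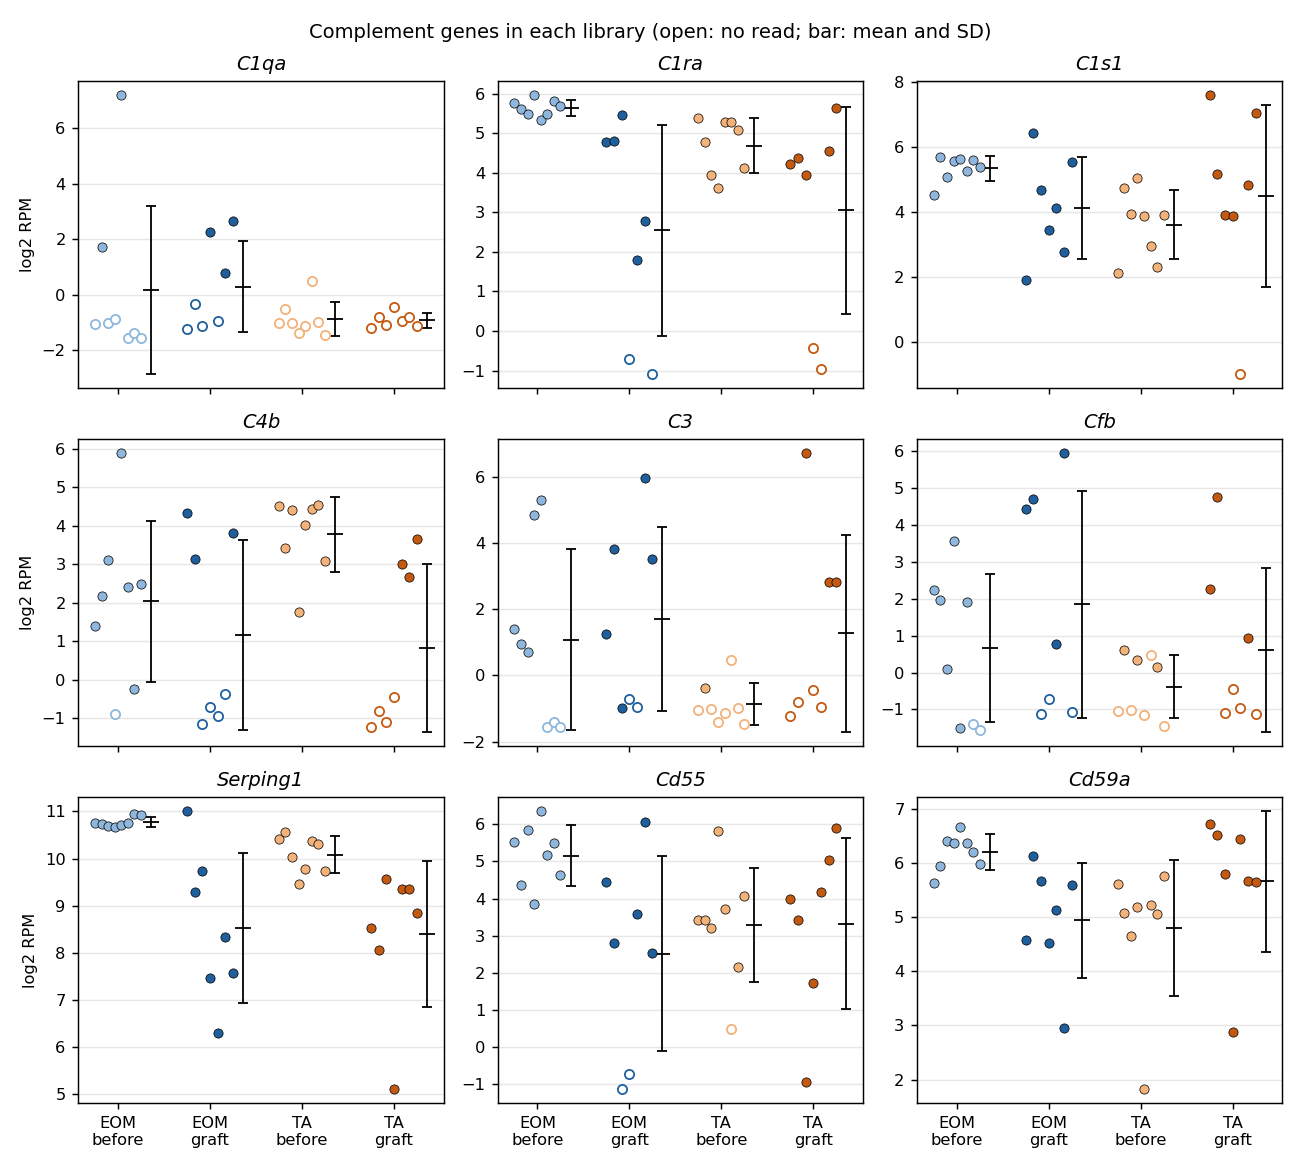
Level of each of the 9 genes (log2 RPM, vertical axes differ between panels) in the 30 libraries, by group, with 1 point for each library (open where it had no read) and the group mean and SD as a bar beside it. The 8 EOM pre-graft libraries form a narrow band for *Serping1*, *C1ra*, *C1s1* and *Cd59a*, and the grafts of either muscle spread over several log2 units.

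TA was compared with EOM before grafting to ask which genes differ between MuSCs of limb and head. Of the 7 members tested, 5 had lower log2 RPM in TA at an adjusted p under 0.05, 2 proteases and 3 regulators, as did 6.14% of the 13217 genes tested. *C1s1* was lower by 1.73 ± 0.40 (log2 difference -1.73, SE, n = 8 and 8, limma, adjusted p = 0.00875) and *Serping1* by 0.69 ± 0.15 (-0.69, adjusted p = 0.00577). *Cd59a* gave -1.40 ± 0.40 (adjusted p = 0.0340), *Cd55* -1.87 ± 0.56 (adjusted p = 0.0421) and *C1ra* -0.97 ± 0.28 (adjusted p = 0.0353). In each of the 7 donors with both libraries, all 5 genes were lower in TA than in EOM of the same mouse. *C4b* had the opposite sign, 1.73 ± 0.76 (adjusted p = 0.162), and was higher in TA in 6 of 7 donors.

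Called here means an adjusted p under 0.05 and a log2 difference beyond 1 in size. By that rule 3 members were lower (*C1s1*, *Cd55* and *Cd59a*) and 0 higher, where 3.31% of genes were called lower and 1.26% higher. The median of the 7 members was -1.05 beside -0.30 over all genes. The call of *C1s1* held with each library left out in turn and in Experiment 2 alone (-1.81, adjusted p = 0.0412), whereas those of *Cd55* and *Cd59a* were lost in 11 and 8 of 16 such fits, with adjusted p of up to 0.0803 and 0.0617. The fit without the EOM library of mouse 2 of Experiment 2 was among them, with -1.70 (adjusted p = 0.0782) for *Cd55* and -1.33 (adjusted p = 0.0583) for *Cd59a*. Paired by donor (replicate block), *C1ra* was called (-1.07, adjusted p = 0.0277) and *Cd59a*, at -0.94 (adjusted p = 0.0292), was within the fold limit. In edgeR on recovered reads 0 members were called, where 1.45% of genes were lower and 1.87% higher, though *Serping1* was lower at -0.43 (adjusted p = 0.0191) and *C1s1* stood at -1.12 (adjusted p = 0.110). *Serping1* was the only member whose groups did not overlap, as for 1.81% of all genes in this direction.

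The value of *C4b* depended on which EOM libraries entered. Without the EOM library of mouse 2 of Experiment 2, it was higher in TA by 2.28 (adjusted p = 0.0358 in limma) and by 2.19 in edgeR (adjusted p = 0.0450, against 0.69 and adjusted p = 0.725 with it). *C4b* was lower in TA than in EOM in 1 donor, that of this library. The edgeR fit without it was chosen after the data were seen. With the libraries left out by the study included, the difference was 0.33 (limma, adjusted p = 0.875). Among those is the EOM library of mouse 3 of Experiment 2, with 492 *C4b* reads.

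**Figure D3:**
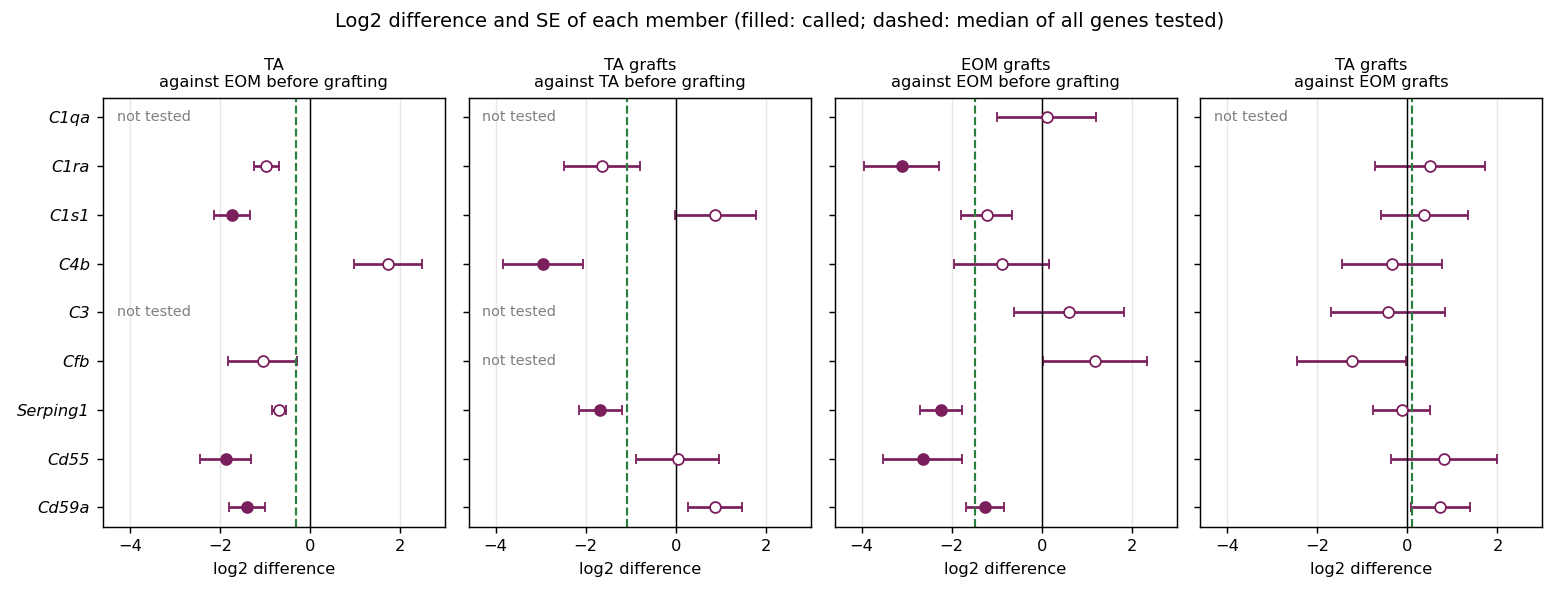
Log2 difference (horizontal axis) with its SE for each member in 4 comparisons by limma on log2 RPM, filled where called, beside the median of all genes tested (dashed line). In TA against EOM before grafting 6 of 7 members lie below the median of -0.30, and in TA grafts *C1s1*, *Cd55* and *Cd59a* lie above the median of -1.09 while *C4b*, *C1ra* and *Serping1* lie below it.

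TA grafts were compared with TA before grafting, where host muscle and donor muscle are the same. Their libraries came from 16 to 67 cells by the labels, against 500 before grafting, and differ in mitochondrial share and marker levels as given above. For mice 4 and 5 of Experiment 2 the quality table of the study gives more cells than the labels do. Grafting and cell number therefore cannot be told apart, and the part of each was not tested. On the deposited scale, *C4b* (-2.95 ± 0.89, n = 7 and 8, adjusted p = 0.0156) and *Serping1* (-1.68 ± 0.48, adjusted p = 0.0119) fell, and no member rose, where 30.9% of 13076 genes were called lower and 3.79% higher. Both called members were lower in 6 of 7 donors. *C1ra* gave -1.64 ± 0.85 (adjusted p = 0.124), *Cd55* 0.04 ± 0.92 (adjusted p = 0.975), *Cd59a* 0.87 ± 0.60 (adjusted p = 0.246) and *C1s1* 0.88 ± 0.91 (adjusted p = 0.432). The last 3 stood above the median change of all genes, by 1.13, 1.95 and 1.97. *Cd59a* was higher in 6 of 7 donors and *C1s1* in 5 of 7. The median of the 6 members tested was -0.80 beside -1.09 over all genes.

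The direction that was called depended on the scaling. In edgeR, which scales on the bulk of genes, *C1s1* rose by 2.53 (adjusted p = 0.0381) and *Cd59a* by 1.54 (adjusted p = 0.0253), where 5.98% of genes were called higher and 3.07% lower. *C4b* (-1.33, adjusted p = 0.454) and *Serping1* (-0.67, adjusted p = 0.144) did not pass there. *Cd59a* was called higher as well in DESeq2 (1.65, adjusted p = 0.00166), with each library centred on its median (1.76, adjusted p = 0.0158) and with mitochondrial genes left out of the scaling (1.46, adjusted p = 0.0426). *C1s1* was called in DESeq2 (2.64, adjusted p = 0.00466), but not in the other 2 (1.78 and 1.47, adjusted p = 0.209 and 0.249). Its value rested in part on the graft of mouse 4 of Experiment 2, which had no read, for without it the difference on the deposited scale was 1.79 (adjusted p = 0.0450). In Experiment 2 alone, which leaves out the graft with 403 reads, it was 0.31 (adjusted p = 0.826). *C3* was under the filter on the deposited scale. With mitochondrial genes left out of the scaling it passed the filter and was called higher (2.73, adjusted p = 0.0427), in the fit over 4 groups it was not called (2.14, adjusted p = 0.129), and both values depend on the level given to libraries without a read. In Experiment 2 alone, *C4b* and *Serping1* on the deposited scale gave -2.55 (adjusted p = 0.0806) and -1.57 (adjusted p = 0.0582), and Experiment 1 holds 1 TA graft, too few for a value of its own.

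**Figure D4:**
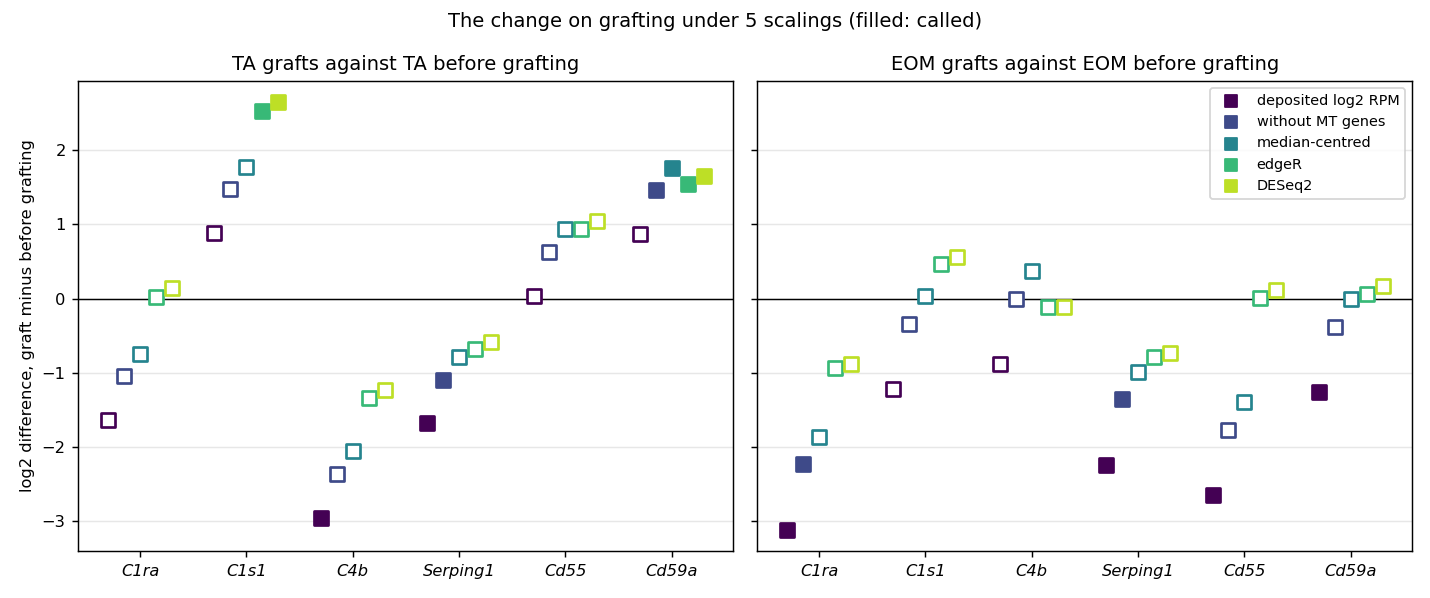
Log2 difference between grafts and pre-graft samples (vertical axis) of 6 members in TA and in EOM under 5 scalings of the same libraries, filled where called. In TA grafts *Cd59a* lies above 0 under each, from 0.87 on deposited log2 RPM to 1.76 with centred libraries, and in EOM grafts the members called lower on deposited values move towards 0 under the others.

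EOM grafts were compared with EOM before grafting to show the change in a foreign muscle. *C1ra* (-3.11 ± 0.84, n = 7 and 8, adjusted p = 0.00508), *Cd55* (-2.65 ± 0.87, adjusted p = 0.0144), *Serping1* (-2.23 ± 0.47, adjusted p = 0.00128) and *Cd59a* (-1.26 ± 0.42, adjusted p = 0.0153) fell and no member rose. This was in a comparison in which 55.8% of 13094 genes were called lower and 3.51% higher, so that 4 of 9 members is no larger a share. *Cd59a* was lower in 6 of 6 donors, and *C1ra* and *Serping1* in 5 of 6. *C1s1* gave -1.22 ± 0.56 (adjusted p = 0.0638), *C4b* -0.88 ± 1.06, *C3* 0.62 ± 1.22 and *Cfb* 1.19 ± 1.15. Without the EOM library of mouse 2 of Experiment 2, *C4b* gave -0.33 ± 0.99 (adjusted p = 0.769) and *C3* 1.22 ± 1.16 (adjusted p = 0.351), and the 4 called members were called there too. The median of the 9 was -1.22 beside -1.48 over all genes, and only *C1ra*, *Cd55* and *Serping1* lay below that median. Paired by donor (replicate block), *Cd55* (-1.93, adjusted p = 0.103) and *Cd59a* (-1.25, adjusted p = 0.0650) were no longer called. In edgeR 0 members were called, where 6.93% of genes were higher and 2.90% lower, and *Cd55* and *Cd59a* stood at 0.01 and 0.07. *Cd59a* was within the fold limit without the EOM graft of mouse 5 of Experiment 2, at -0.93.

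Between TA grafts and EOM grafts 0 of 8 members tested were called in either direction, as were 0 of 12377 genes by limma (0% higher and 0% lower, 452 genes at an unadjusted p under 0.05) and by edgeR (347 genes). The differences ran from -1.24 ± 1.21 for *Cfb* to 0.82 ± 1.17 for *Cd55*, each with an adjusted p that rounds to 1. The lowest unadjusted p of a member was 0.275 (limma, *Cd59a*), so that differences of this size were within the spread of the grafts. *Cd59a* gave 0.73 ± 0.66 and was higher in the TA graft in 5 of 6 donors.

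The change of EOM on grafting was then set against that of TA in 1 fit over the 4 groups. No member passed, where 0.0554% of 14428 genes were called higher and 0.152% lower. The median over all genes was -0.31. In edgeR *Cd59a* gave -1.49 (adjusted p = 0.332). On the deposited scale *Cd59a*, which fell in EOM by less than the median gene and had a positive difference in TA, gave -2.12 ± 0.76 (adjusted p = 0.500, unadjusted p = 0.00766). *Cd55* gave -2.69 ± 1.30 there (adjusted p = 0.690). *C1s1* gave -2.10 ± 1.12, *C3* -1.53 ± 1.60, *C1ra* -1.47 ± 1.24 and *Serping1* -0.55 ± 0.71, and *C4b* had the opposite sign at 2.07 ± 1.40. Without the EOM library of mouse 2, *C3* gave -0.93 ± 1.54 and *C4b* 2.62 ± 1.34 (adjusted p = 0.935 and 0.730). These fits share the libraries of the separate comparisons above and are not independent of them.

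The pathway list held 52 genes of the table, the 9 members included. Before grafting, 5 of 22 tested were lower in TA and 0 higher, beside 3.31% and 1.26% of all genes, with a median of -0.64. Beside the 3 members these were *Colec12*, a scavenger receptor with a collectin domain (-1.72 ± 0.21, adjusted p = 8.1e-06), and *Vtn*, the gene of vitronectin, which limits the membrane pore (-1.08 ± 0.16, adjusted p = 7.12e-05). *Colec12* was also called lower in edgeR (-1.42, adjusted p = 6.67e-05), and *Vtn* there passed the test but not the fold limit (-0.84, adjusted p = 0.00278).

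In TA grafts 7 of 19 pathway genes tested were lower and 0 higher (median -1.41), a share near the 30.9% of all genes that were lower. Paired by donor (replicate block), 6 were lower. Outside the members they included *Cd59b* (-2.70 ± 0.76), *Cfp*, the gene of properdin (-2.45 ± 0.91), *Colec12* (-2.10 ± 0.56) and *C1qbp* (-1.77 ± 0.44). In EOM grafts 11 of 23 were lower and 1 higher (median -1.30), beside 55.8% and 3.51% of all genes, and the 11 became 6 with the replicate block. Those that fell included *Clu*, the gene of clusterin (-2.42 ± 0.94), *Cd59b* (adjusted p = 0.0226), *Colec12* (-1.87 ± 0.49), *Masp2* (-1.76 ± 0.73), *C1qbp* (-1.51 ± 0.47) and *Vtn* (-1.30 ± 0.40). The one that rose was *C2*, whose product forms the classical C3-cleaving enzyme with C4, at 2.61 ± 1.11 (adjusted p = 0.0468). It had 113, 93, 23, 12 and 1 reads in 5 EOM grafts, and 47 in the EOM library with macrophage markers before grafting. In edgeR, no pathway gene was called lower in TA grafts or EOM grafts, and *C2* gave 3.46 (adjusted p = 0.120). *C2* was called higher with centred libraries (3.86, adjusted p = 0.0184) and, without the EOM library of mouse 2, in limma (3.22, adjusted p = 0.0137) and edgeR (6.24, adjusted p = 0.00918). Over the 15 fits that each leave out 1 library, it was called in 5 and not in 10, with adjusted p of up to 0.106. Of the other near-identical partners, *C4a* and *C1s2* (listed as *Gm5077*) were not called on the deposited scale, although *C1s2* was called lower in EOM grafts on log2(RPM + 1) (*Gm5077*, -1.19, adjusted p = 0.0261), and *Cd55b* was under the filter in all 5 comparisons on that scale.

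Of 26 interferon-induced genes, all tested, 12 were higher and 0 lower in TA grafts (median 0.89 beside -1.09 over all genes, of which 3.79% were higher and 30.9% lower), and 8 were higher and 4 lower in EOM grafts (median -0.01 beside -1.48, with 3.51% and 55.8% of all genes). Before grafting 0 were higher and 3 lower in TA, and 0 were called between the grafts. Against these counts, 0 of 6 and 0 of 9 complement members were called higher in TA and EOM grafts on the same scale. In edgeR 2 of 6 and 0 of 9 were, and 18 and 15 of the interferon-induced genes, beside 5.98% and 6.93% of all genes. In TA grafts *C1qa*, *C3* and *Cfb* were under the filter and could not be called, so the count covers only part of the members. Both lists were chosen with earlier results of these data known.

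*C1s1* and *Cd59a*, the members called higher in TA grafts by edgeR, varied together over the 30 libraries once each was centred on its median (Spearman's rho 0.63), as did *C1ra* and *Serping1* (0.62), while *Serping1* and *C1s1* went opposite ways (-0.39). These points share library, depth and group and include the libraries that gave the calls, so the values are a description and no added support. For *Cd59a* and *C1s1* the 250 bases before a start site are shown (RefSeq, GRCm38.p6), *Cd59a* from chr2:104095551-104095800 on the plus strand and *C1s1* from chr6:124542360-124542609 on the minus strand, with a match to the interferon-stimulated response element, searched on either strand, in capitals.

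Cd59a: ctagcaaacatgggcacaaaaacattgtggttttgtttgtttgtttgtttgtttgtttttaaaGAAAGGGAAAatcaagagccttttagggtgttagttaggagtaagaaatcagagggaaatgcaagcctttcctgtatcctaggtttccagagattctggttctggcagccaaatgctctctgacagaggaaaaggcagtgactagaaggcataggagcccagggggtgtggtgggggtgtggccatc

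C1s1: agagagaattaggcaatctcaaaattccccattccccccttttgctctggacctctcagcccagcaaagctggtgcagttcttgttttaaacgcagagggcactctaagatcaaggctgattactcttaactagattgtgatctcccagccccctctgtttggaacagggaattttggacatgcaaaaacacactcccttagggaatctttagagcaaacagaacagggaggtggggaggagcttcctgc

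The capital stretch in *Cd59a* begins at base -187 from the start site, and *C1s1* holds no match, here or at its other listed start site. A match to the same consensus occurs in 3.44% of the 32851 promoters of 300 bases in the table. A gamma-activated site (TTCNNNGAA) occurs in 8.30% of them and, among the 5 members with an entry, in *C1ra*, as TTCCCTGAA, 32 bases after its start site. The NF-kappaB consensus occurs in 8.46% and in none of the 5, which are *C3*, *C1ra*, *C1s1*, *Cd55* and *Cd59a*. These matches are letters only and say nothing of binding.

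For the 6 members above log2 RPM 1 in 15 or more of the libraries, the genes with the most similar pattern over the 30 libraries were listed among 11449 genes. *C1s1* was most like *Gm16567*, the overlapping gene (rho 0.85), then *Timeless* (0.77) and *Col1a1* (0.76). *Serping1* was most like *Cd82* (0.90), *Rpl10* (0.88) and *Rpl14* (0.88), and *Cd59a* like *Stx12* (0.81), *B4galt3* (0.80) and *Cd34* (0.79). *C1ra* was nearest to *D19Ertd737e* (0.78), *Eef1a1* (0.75) and *Tcf25* (0.75). For *C4b* the values were lower, with *N6amt2* (0.67), *Arhgef11* (0.67) and *Slc4a4* (0.63), and for *Cd55* they were 0.63 for *Efna5*, 0.62 for *Lpcat1* and 0.61 for *Zfr2*.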

How the data were processed

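According to the paper and the submitters' processing notes, the authors trimmed reads with Trim Galore 0.4.4, aligned them with HISAT2 2.1.0 to GRCm38, and in Seqmonk scaled counts per gene to library size and took log2. The deposited gene table holds log2 RPM. The deposited library tables hold read counts and percent of reads in genes, exons and mitochondrial genes. The annotation release and the treatment of reads with several alignments are not given in the sources used here. The 40 bisulfite libraries were not analysed here.

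In each library the lowest value stands for 0 reads at 0.9 of a read. Reads were recovered from it (100% of values of up to 1000 reads were whole within 0.05). With 1 row kept per symbol, 25899 genes remained. Only the 30 libraries that the study's quality table passes entered, and 0 sample columns were left unused. Group, mouse and experiment came from the labels.

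limma 3.58.1 (R 4.3.3), with a trend over the mean, was fitted to log2 RPM of the groups compared, for genes that exceeded 1 in 4 or more of those libraries. Tests were two-sided with Benjamini-Hochberg adjustment over all genes tested. Alternatives were a replicate block for the donor, a term for the experiment, only Experiment 2, the 40 libraries together, a joint fit of the 4 groups, log2(RPM + 1), 2 other filters, 2 other scalings, edgeR 4.0.16 and DESeq2 1.42.0 on recovered reads, and each library left out. The limma fit was tested on simulated counts with known changes in well-read genes and the same spread in both groups. That test does not cover the general shift and wider spread of the grafts or genes of few reads. Members and lists (complement pathway, interferon-induced genes, markers of MuSCs, macrophages, fibro-adipogenic, endothelial, Schwann, myofibre and erythroid cells) were chosen with earlier results of these data known. Apart from the members, pathway genes are named where called or where a near-identical partner of a member, and the 3 genes of highest Spearman correlation with each widely read member are named. Of these, 1 pathway gene is not reported here by name.

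Libraries with the same number come from the same donor mouse by the labels, so the groups are paired. Deviations from group means of same-numbered libraries correlated between -0.25 and 0.23 over 11449 genes. Replicates are separate mice.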

Additional observations from a re-analysis of the deposited data

Results flagged for a closer look

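Within the groups, 32 sets of 7 or 8 member values were checked for a single library far from the others, and 4 were flagged. The limits used would pick about 1 in 20 sets of normally spread values. Several sets here held libraries without a read, and the sets share libraries, so that rate need not hold for them. *C1qa* in EOM before grafting was one, with mouse 2 of Experiment 2 at 7.21 log2 RPM and the next library at 1.70. *Serping1* in TA grafts had mouse 3 of Experiment 2 at 5.11, against 8.05 for the next lowest. *Cd59a* had the same mouse lowest both in TA before grafting, at 1.82 against 4.65, and in TA grafts, at 2.88 against 5.64. Mitochondrial genes took 18.8% of gene reads in that TA library and 81.1% in its graft.

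In 7 cases a member with over 3 reads was higher in a library left out of the comparisons than in every passing library of its group. *C4b* in EOM before grafting stood at 215 RPM in mouse 3 of Experiment 2 (492 reads), against at most 59.5 in the 8 compared. That library also had 274 *C1qa* reads and 1552 RPM of macrophage markers. It met the stated limits, and the study left it out as an outlier in its group. *C1qa* stood at 9.49 RPM in the TA graft of mouse 1 of Experiment 1, against none in the 7 compared. The EOM graft of mouse 1 of Experiment 1 had 88.2 RPM of *C1s1* (highest compared 85.0) and 87.1 RPM of *Cd59a* (70.1). The remaining 3 were barely higher, *C4b* in the TA graft of mouse 4 of Experiment 1 at 12.9 RPM (12.6), *Serping1* in that of mouse 5 at 784 RPM (763) and *Cd59a* in TA of mouse 1 before grafting at 54.0 RPM (54.0). No member passed the test of a difference between the muscles in the change on grafting.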

How the results depend on the processing

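Before grafting, the 3 members called lower in TA became 1 in Experiment 2 alone, with mitochondrial genes left out of the scaling and with centred libraries, 2 with the experiment as a covariate, and 0 with all libraries, in 1 fit over 4 groups, in edgeR with or without the library of macrophage markers, and in DESeq2. That library left out, 1 was called higher in edgeR. For TA grafts, the 2 called lower became 1 without mitochondrial genes and 0 in Experiment 2 alone, centred, in edgeR and in DESeq2, and the 0 called higher became 2 without mitochondrial genes, 1 centred, 2 in edgeR and 2 in DESeq2. For EOM grafts, the 4 called lower became 5 with that covariate and with all libraries, 2 with the donor mouse as replicate block, 2 without mitochondrial genes and 0 centred, in edgeR (macrophage library in or out) and in DESeq2, in which 1 (*Cfb*) was called higher. With 1 library left out at a time, the counts ranged from 1 to 3 lower and 0 to 1 higher in TA before grafting, 2 to 2 lower and 0 to 1 higher in TA grafts, and 3 to 5 lower and 0 to 0 higher in EOM grafts, and stayed at 0 in the other 2 comparisons. Called values that changed sign were *Cd55* in EOM grafts, at 0.0052 in edgeR, 0.12 in DESeq2 and 0.26 in edgeR without the macrophage library, and *Cd59a* there, at 0.0679, 0.18 and 0.16. The cause of these differences was not tested. edgeR without the macrophage library was chosen after seeing the data. The replicate block left the other counts of members called as they were, but took pathway genes lower from 11 to 6 in EOM grafts and from 7 to 6 in TA grafts, and interferon-induced genes from 12 to 13 higher in TA grafts, from 4 to 2 lower in EOM grafts and from 3 to 2 lower in TA before grafting.

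Among the low members, *C1qa*, *C3* and *Cfb* were under the filter in up to 3 comparisons, and 2 to 4 libraries of each kind of graft had no read of *C1ra*, *C4b* or *C3*.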
